A study of Trichoderma atroviride IMI 206040 with 36 samples.

Results

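The response of the Δenv-1 mutant of the filamentous fungus Trichoderma atroviride IMI 206040 to a pulse of blue light was measured in 6 RNA-seq libraries, out of 36 in the study. They were taken by their labels: 3 of mycelium collected 30 min after a blue light pulse of 200 µmol per square metre, and 3 of mycelium from plates that were never lit. Per the labels, both groups had grown for 36 h on potato dextrose agar that was covered with cellophane. In the Δenv-1 strain, which both groups share, the open reading frame of env-1 had been replaced in the wild type (WT) by hph, the bacterial gene for hygromycin resistance. A second Δenv-1 line or a strain given back the gene is not among the samples, so loss of the protein and the insertion of the marker at that place in the genome cannot be told apart. The same light and dark groups of the WT strain, again 3 libraries each, were used to show where the mutant differed. All tests came from a joint fit that also held the light and dark groups of Δblr-1, a mutant that lacks the light receptor BLR-1. These were 3 libraries each as well, and all groups shared the estimate of the spread. The study called the replicates biological. All 11863 transcripts of the table were considered, and 9401 had enough counts to be tested.

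ENVOY, the product of env-1, is a small flavin-binding photoreceptor of the PAS/LOV type and the counterpart of VIVID in Neurospora crassa. In Neurospora, light makes the white collar complex bind and switch on its target genes, the gene for VIVID among them, and VIVID then binds the complex and damps the response. In T. atroviride the white collar proteins are BLR-1 and BLR-2. Blue light in this fungus induces photolyases, which repair DNA damaged by ultraviolet light, and triggers the formation of conidia, the asexual spores. The comparison asks which transcripts still respond to light when ENVOY is missing.

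The Δenv-1 libraries held 5753999, 14444146 and 9733598 counts in light and 8454083, 15221263 and 22011847 counts in darkness, and the WT libraries 4278616 to 17275233. Levels are given as counts per 1000000 counts (CPM) after normalization for library composition, in the order of replicates 1, 2 and 3. A level of 3 counts, taken as the detection floor, was between 0.182 and 0.505 CPM in the Δenv-1 libraries. This floor covers counting error only. The dark libraries did not all resemble each other, and dark replicate 2 stood apart. Its rank correlation over the genes tested (Spearman) was 0.989 with dark replicate 1 and 0.987 with dark replicate 3. Dark replicates 1 and 3 correlated at 0.995, and the light libraries with each other at 0.995 to 0.996. Dark replicate 3 was left out by the authors, and in dark replicates 1 and 3 a pair of undescribed transcripts took 14.3 and 30.8% of all counts, against 0.653% in dark replicate 2 and 0.335 to 3.79% in the light libraries. All 3 dark libraries were kept here, and the totals and the counts by gene group are also given without dark replicate 3. Where dark replicate 2 decides a result, that is given as well.

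The env-1 transcript (Id. 150699) itself was read first. It stood at 256, 241 and 282 CPM in Δenv-1 light and 32.3, 32.5 and 39.8 CPM in Δenv-1 darkness, against 109, 107 and 106 CPM in WT light and 1.73, 1.76 and 2.05 CPM in WT darkness. Reads of env-1 were therefore present in all 6 mutant libraries, and each Δenv-1 library was above every WT library of the same light condition. The deposited table gives 1 value per transcript, so which end of the transcript those reads came from was not tested here. The paper reports that Δenv-1 reads mapped to the 3' untranslated region, a part that the replacement left in place. Only the open reading frame was replaced, and a total over a transcript of which an untranslated end remains does not check the strain label in either direction. In the mutant the transcript averaged 259.8 ± 20.7 CPM in light and 34.9 ± 4.23 CPM in darkness (SD, n = 3 each). It rose in light (log2 fold change 2.90, standard error 0.088, edgeR adjusted p = 1.21e-13), and the log2 fold change in the WT was 5.85.

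The place of env-1 in the genome was then examined through its neighbours in the gene order of the RefSeq annotation of strain P1, another strain of the species. Whether IMI 206040 has the same order was not tested. Of the 4 genes on each side of env-1, 8 in all, 3 responded to light in Δenv-1, and the same 3 did without dark replicate 3. Over all genes tested 0.904% were induced and 0.894% repressed. On one side of env-1 lies Id. 16905, a formamidopyrimidine-DNA glycosylase that removes oxidised bases from DNA. It had 25.9, 26.3 and 27.7 CPM in Δenv-1 light and 13.8, 11.3 and 9.79 CPM in Δenv-1 darkness, against 7.35, 7.58 and 8.41 CPM in WT light and 6.25, 7.56 and 7.52 CPM in WT darkness. All 6 Δenv-1 libraries were above all 6 WT libraries, and the light libraries of Δenv-1 were above its dark libraries (log2 fold change 1.22, standard error 0.15, edgeR adjusted p = 4.04e-05). In the WT the groups were close (log2 fold change 0.14, edgeR adjusted p = 0.772).

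On the other side lies Id. 245230, whose description names chromosomal organization and DNA repair. It had 174, 170.3 and 159 CPM in Δenv-1 light and 74.1, 77.9 and 70.3 CPM in Δenv-1 darkness, against 102, 92.1 and 100.1 CPM in WT light and 70.1, 73.2 and 80.9 CPM in WT darkness. Its Δenv-1 light libraries were above all the others, and the dark levels of the strains overlapped. The log2 fold change was 1.18 in Δenv-1 (standard error 0.064, edgeR adjusted p = 4.64e-10) and 0.39 in the WT (edgeR adjusted p = 0.000993). The gene after it, Id. 293449, is described as a hexaprenyldihydroxybenzoate methyltransferase, an enzyme of ubiquinone synthesis. It had no count in any of the 3 Δenv-1 light libraries and 14.5, 15.8 and 14.2 CPM in Δenv-1 darkness, against 0, 10.9 and 4.63 CPM in WT light and 20.1, 22.5 and 13.2 CPM in WT darkness. Set against a floor of 3 counts per library, it was at least 44.1-fold lower in Δenv-1 light than in Δenv-1 darkness (edgeR adjusted p = 0.000781). In the WT it was lower in light as well, without passing the test (log2 fold change -1.94, edgeR adjusted p = 0.0996).

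The light response of Δenv-1 minus that of the WT was tested for every gene. Of 9401 genes 2 passed (0.0213%, with 510 at an unadjusted p of at most 0.05), and both lie at this place: env-1, whose log2 difference was -2.96 (standard error 0.19, edgeR adjusted p = 2.38e-07), and Id. 245230, whose log2 difference was 0.79 (standard error 0.092, edgeR adjusted p = 0.000694). Ordered by the p of this test, Id. 16905 came 6th, with a log2 difference of 1.08 (standard error 0.23, edgeR adjusted p = 0.392), and Id. 293449 came 21st. The share of counts that Id. 245230 or Id. 16905 owes to reads that run past the end of the neighbouring transcript or the marker was not tested, and the library kit does not mark strand. The fit with the replicate number as a block called 46 genes, 5 with a higher and 41 with a lower response in Δenv-1, both genes among them, and gave Id. 16905 an edgeR adjusted p of 0.0961. Without dark replicate 2 the count was 84, of which 82 were lower, and without WT light replicate 1 or WT light replicate 2 it was 3 or 5.

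**Figure D1:**
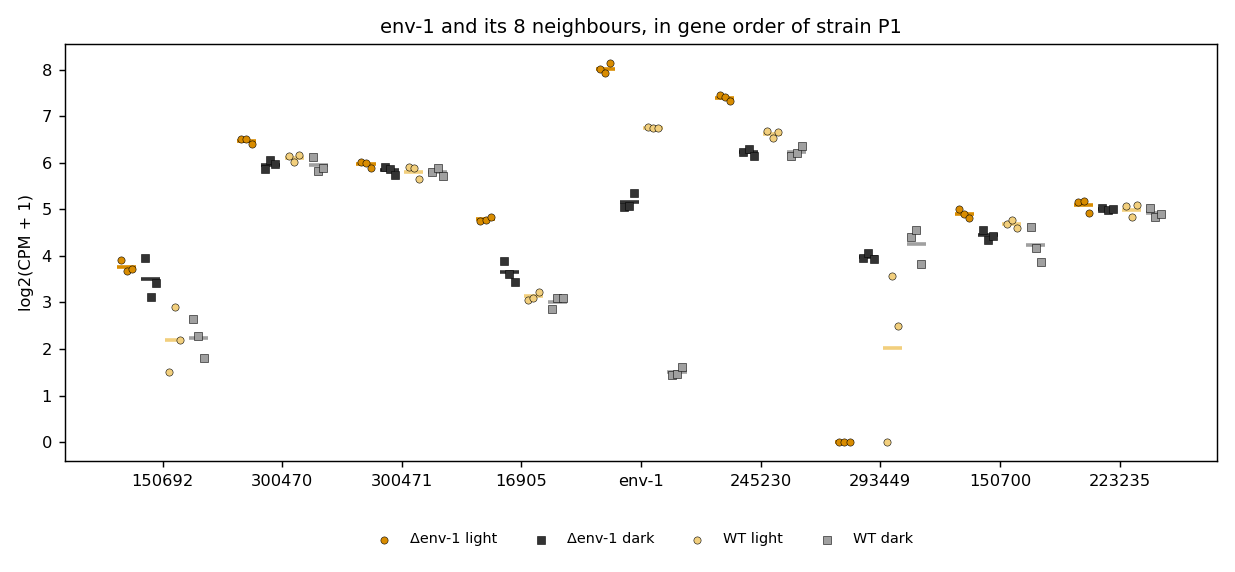
Level of env-1 and of the 4 genes on each side of it in the gene order of strain P1, as log2(CPM + 1) on the vertical axis, with 1 point per library for Δenv-1 light, Δenv-1 darkness, WT light and WT darkness. The points of env-1, Id. 16905 and Id. 245230 lie higher in Δenv-1 light than in any other group, and Id. 293449 is at 0 in the 3 Δenv-1 light libraries.

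The other 5 neighbours did not pass the call. Id. 300470 had 90.9, 90.5 and 83.2 CPM in Δenv-1 light and 57.1, 65.5 and 61.5 CPM in Δenv-1 darkness, without overlap, but its log2 fold change of 0.52 was below the minimum of 1 (edgeR adjusted p = 0.000469). Id. 150692, the outermost on the side of Id. 16905, had 14, 11.8 and 12.1 CPM in light and 14.6, 7.65 and 9.67 CPM in darkness in Δenv-1, against 1.86, 6.42 and 3.56 CPM in WT light and 5.2, 3.87 and 2.51 CPM in WT darkness. Its Δenv-1 libraries were all above its WT libraries, with no difference between light and dark in either strain that passed the test. Ids. 300471, 150700 and 223235 had log2 fold changes of 0.14, 0.49 and 0.08.

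Over all transcripts, 85 genes were induced and 84 repressed in Δenv-1 (log2 fold change of at least 1 in size and edgeR adjusted p of at most 0.05). Without dark replicate 3, 85 of 9466 genes were induced (0.898%) and 23 repressed (0.243%). The induced genes hardly depended on which library was left out, with 81 to 85 called, and 72 of the 85 passed under every one of the 6 omissions. The repressed genes did depend on it: 36, 28 and 36 were called without light replicate 1, 2 or 3, 31 without dark replicate 1, 177 without dark replicate 2 and 23 without dark replicate 3. Only 15 passed every time. In all 85 induced genes every light library was above every dark library, an order seen in 14.6% of all genes tested. Of the repressed genes 31 had every light library below every dark library, an order seen in 14.1% of all genes, and 53 had groups that overlapped.

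The 10 largest inductions included a transcript with no count in the dark. Id. 206334, a DUF1295 domain protein, had 422, 369 and 323 CPM in light and no count in any dark library, and was at least 1443-fold higher in light against a floor of 3 counts per library (edgeR adjusted p = 6.05e-10). Its next gene in the P1 order, Id. 147790, is a 4-nitrophenylphosphatase and was also induced (log2 fold change 1.51). The reporter blu-1 (Id. 300570), which encodes the counterpart of the glucose-repressible protein GRG-1 of Neurospora, had 1028, 1197 and 1132 CPM in light against 6.76, 4.85 and 10.03 CPM in darkness (log2 fold change 7.26, standard error 0.22, edgeR adjusted p = 1.21e-13). Id. 153516, a cyclopropane-fatty-acyl-phospholipid synthase that modifies membrane lipids, had 208, 185 and 208 CPM in light against 6.1, 6.44 and 7.84 CPM in darkness (log2 fold change 4.86). In each of these genes the lowest light library was far above the highest dark library. Groups without overlap were a condition for the top 10, which every induced gene met. The FAD-binding domain protein Id. 298329 had 500.4, 511 and 521 CPM in light against 22.1, 11.2 and 27.1 CPM in darkness (log2 fold change 4.68), and the ankyrin repeat protein next to it, Id. 305868, had 18.3, 20.6 and 21.2 CPM against 0.795, 0.51 and 1.7 CPM.

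The other genes of the top 10 by size were Id. 131348, a hypothetical protein (log2 fold change 4.16), the oxidoreductase Id. 42455 (4.14), the glycoside hydrolase family 15 protein Id. 131177 (3.93), the sarcosine oxidase Id. 35737 (3.64) and the hypothetical protein Id. 297389 (3.45). Id. 131177, of a family that releases glucose from starch-like glucans, had 182, 218 and 217 CPM in light against 15.6, 12.2 and 13.4 CPM in darkness. Id. 35737, which belongs to the flavin enzymes that oxidise methylated amines, had 358, 392 and 364 CPM in light against 29.6, 37 and 23.2 CPM in darkness. The highest level of any induced gene, picked after its values were seen, was that of the hypothetical protein Id. 302581, with 9818, 10459 and 8622 CPM in light against 1302, 1341 and 1227 CPM in darkness. The induced genes had a median log2 fold change of 1.61, and 31 of them reached 2 or more. Their median level was 62.4, 63.3 and 61.3 CPM in the light libraries against 13.5, 11.2 and 13.3 CPM in the dark libraries. Of the 85, 83 had a description in the study's tables, 23 of them as hypothetical proteins. The induced pair Id. 254981 and Id. 297658 had identical counts in every library, so their reads cannot be told apart.

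Of 6 genes grouped as photoreceptors and clock, 5 were induced, with or without dark replicate 3, and their median log2 fold change was 1.61 against -0.0010 over all genes tested. For this and every gene group below, the shares over all genes tested were 0.904% induced and 0.894% repressed. Of the 106 genes in these groups, 74 come from Δenv-1 tables that the study made from these libraries. High counts in the groups are therefore not independent evidence. The group includes env-1, whose reading frame was replaced in this strain, and tmk-3, which encodes a stress-activated kinase and is neither a photoreceptor nor a core clock gene. The gene cry-1 (Id. 86846) encodes a photolyase of the cryptochrome/photolyase family, which the paper also counts among the photoreceptors. It had 36.9, 38.9 and 40.5 CPM in light and 13.5, 11.2 and 13.5 CPM in darkness (log2 fold change 1.62, standard error 0.10, edgeR adjusted p = 4.12e-09). The photolyase gene phr-1 (Id. 302457), whose enzyme splits pyrimidine dimers with light energy, had 1083, 1019 and 991 CPM in light and 353, 343 and 323 CPM in darkness (log2 fold change 1.61, standard error 0.073, edgeR adjusted p = 3.71e-11). The clock gene frq (Id. 131340), which encodes the negative element of the circadian oscillator in Neurospora, had 324, 333 and 329 CPM in light and 69.2, 66 and 63.6 CPM in darkness (log2 fold change 2.32, standard error 0.07, edgeR adjusted p = 1.21e-13). In none of these genes did the groups overlap, and the spread within each group was small beside the difference. For tmk-3 (Id. 301235) the levels were 579, 577 and 601 CPM in light and 191, 207 and 202 CPM in darkness (log2 fold change 1.55, standard error 0.051, edgeR adjusted p = 3.80e-13).

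The exception was cry-DASH (Id. 285589), which encodes a cryptochrome close to the DNA photolyases. It had 1.85, 1.6 and 1.96 CPM in light and 0.795, 0.255 and 2.13 CPM in darkness, so that dark replicate 3 was above all light libraries while the other dark libraries were below them (log2 fold change 0.70, standard error 0.52, edgeR adjusted p = 0.525). Leaving out dark replicate 3 raised the log2 fold change to 1.95 (edgeR adjusted p = 0.0514). In the WT it was 2.08 (edgeR adjusted p = 0.0499), and the difference between the strains did not pass the test (edgeR adjusted p = 0.953).

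**Figure D2:**
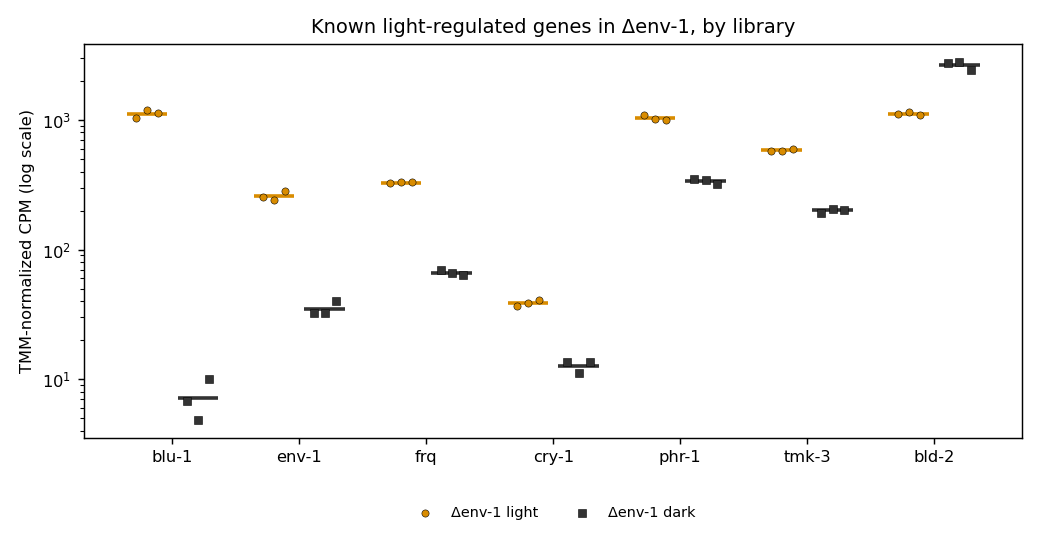
Levels of 7 known light-responsive genes in Δenv-1, as CPM on a log axis, with the 3 light libraries left of the 3 dark libraries of each gene. The light points of env-1, cry-1, phr-1, frq, tmk-3 and blu-1 are all above the dark points, and those of bld-2 are all below them.

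Among 14 genes of DNA repair and DNA metabolism 5 were induced and none repressed, with a median log2 fold change of 0.61. These were cry-1, phr-1, Id. 16905 and Id. 245230 beside env-1, and the base excision repair protein Id. 26345, which had 92.4, 88.3 and 96.5 CPM in light and 10.9, 10.4 and 10.5 CPM in darkness (log2 fold change 3.14, standard error 0.10, edgeR adjusted p = 4.43e-13). Just under the minimum size were Id. 32123, a protein that recognises mismatched base pairs and cruciform DNA (log2 fold change 0.99, edgeR adjusted p = 1.50e-05), and Id. 157714, a subunit of replication factor C, which loads the sliding clamp onto DNA (log2 fold change 0.97, edgeR adjusted p = 2.45e-07). The count of 5 became 6 without dark replicate 3, where Id. 157714 reached 1.01. The remaining 7 genes, among them rad-1, rad-2, rad-55, a DNA polymerase and 2 topoisomerases, had log2 fold changes between -0.09 and 0.24. All 4 genes of sulfur and serine metabolism stayed below the minimum size, at -0.38 to -0.08. The largest was serine hydroxymethyltransferase (Id. 300337), which passes carbon units from serine to folate, with 146, 162 and 155 CPM in light and 209, 203 and 194 CPM in darkness (edgeR adjusted p = 0.000302).

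Of 16 transcription regulators 9 were induced and 1 was repressed, the same counts as without dark replicate 3, with a median log2 fold change of 1.35. Over all genes tested 0.904% were induced and 0.894% repressed. The C6 zinc finger gene Id. 297511 had 510.5, 496 and 517 CPM in light and 95.6, 94.5 and 94.4 CPM in darkness (log2 fold change 2.43, standard error 0.069, edgeR adjusted p = 6.55e-14). The HMG box gene Id. 321166 had 51, 46.3 and 47.3 CPM in light and 7.82, 9.82 and 8.94 CPM in darkness (log2 fold change 2.43, standard error 0.14, edgeR adjusted p = 1.01e-09). The fungal specific transcription factor Id. 44933 had 23.6, 26.4 and 18 CPM in light and 4.38, 3.63 and 4.5 CPM in darkness (log2 fold change 2.45, standard error 0.17, edgeR adjusted p = 1.38e-08). In each of the 3 the groups were far apart. The zinc finger proteins Id. 163153 and Id. 165197 rose by log2 fold changes of 2.28 and 1.83, the CP2 factor Id. 319089 by 1.55, and Ids. 173171, 41299 and 49937 by 1.48, 1.48 and 1.22. The repressed one was Id. 87055 (log2 fold change -1.05, edgeR adjusted p = 0.00655).

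Among 18 flavin and heme oxidoreductases tested 10 were induced and 3 repressed (median log2 fold change 1.12), and without dark replicate 3 the counts were 11 and 1. Ferrochelatase (Id. 301320), the enzyme that puts iron into heme, had 599, 599 and 579.6 CPM in light and 73.2, 78.9 and 74.6 CPM in darkness (log2 fold change 2.97, standard error 0.06, edgeR adjusted p = 1.21e-15). The cytochrome P450 genes Id. 302580 and Id. 239723, which encode heme-dependent monooxygenases, rose by log2 fold changes of 1.90 and 1.11, and the flavin-containing amine oxidase Id. 281337 by 3.24. The monooxygenase Id. 265387 had 1.85, 2.16 and 2.64 CPM in Δenv-1 light and 0.53, 0.255 and 1.22 CPM in Δenv-1 darkness, against 30.04, 11.2 and 40.02 CPM in WT light and 0.52, 0.352 and 0.456 CPM in WT darkness. Its Δenv-1 light libraries were below all WT light libraries. Its light response was called in the WT (log2 fold change 5.90), and in Δenv-1 with the replicate block (edgeR adjusted p = 0.00638) or without dark replicate 3 (2.64, edgeR adjusted p = 0.0451, against 1.68 and 0.0894 with it). The difference between the strains was not called without the replicate block (edgeR adjusted p = 0.434) and was called with it (log2 difference -4.05, edgeR adjusted p = 0.00995).

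Of 5 polyketide and terpenoid enzymes tested, the geranylgeranyl diphosphate synthase Id. 160158, which makes the precursor of carotenoids and many terpenoids, was induced, also without dark replicate 3. It had 1155, 1222 and 1073 CPM in light and 229, 232 and 235 CPM in darkness (log2 fold change 2.31, standard error 0.076, edgeR adjusted p = 3.62e-13). The next genes in the P1 order, the hypothetical protein Id. 160157 and the cell division control protein Id. 155669, were induced too, by log2 fold changes of 1.77 and 2.88. The 2 terpenoid synthases Id. 298910 and Id. 184804 and the polyketide synthases Id. 45973 and Id. 33092 were not called, with log2 fold changes of -0.48, -1.14, -1.41 and -3.38. With the replicate block the last 3 were called, at edgeR adjusted p of 0.0441, 0.0271 and 0.00692.

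Transporters went both ways: 4 of 14 were induced and 5 repressed, or 4 and 4 without dark replicate 3. The toxin efflux pump Id. 201457 had 83.5, 78.5 and 84 CPM in light and 11.7, 8.86 and 12.9 CPM in darkness (log2 fold change 2.89), the multidrug resistance protein Id. 302688 rose by 1.94, the channel of the MIP family Id. 283564 by 1.29 and the sugar transporter Id. 92394 by 1.21. Among the repressed transporters, the monocarboxylate transporter Id. 153853 had 0.842, 1.6 and 1.66 CPM in light and 7.69, 4.34 and 5.05 CPM in darkness (log2 fold change -1.94, standard error 0.33, edgeR adjusted p = 0.00109). A transporter of the major facilitator superfamily, Id. 225948, and a sodium/potassium ATPase, Id. 131293, were repressed with log2 fold changes of -1.69 and -1.19. These 3 had light libraries below every dark library and were also called without each library in turn. For Id. 225948 the margin was narrow, since dark replicate 2 was close to the light libraries. It had 5.39, 5.3 and 4.21 CPM in light and 18.2, 5.99 and 24 CPM in darkness. The multidrug resistance protein Id. 53012 had 1.01, 0.279 and 0.392 CPM in light and 56.5, 0.638 and 83.1 CPM in darkness, so that dark replicate 2 lay within the light libraries while the other dark libraries were high (log2 fold change -6.59, standard error 1.18, edgeR adjusted p = 0.00174).

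This last pattern held for most of the repressed genes. Their median level was 1.35, 1.05 and 1.32 CPM in the light libraries against 13.5, 1.28 and 15.6 CPM in the dark libraries, so that dark replicate 2 was at the level of the light libraries. Dark replicate 2 was the lowest dark library in 75 of the 84 genes, and the share of all genes tested with this order was not counted. In all 53 genes with overlapping groups dark replicate 2 was below the highest light library. Taken against each dark library alone, the median log2 ratio of the mean light level (CPM + 0.5) was -2.49 for dark replicate 1, -0.056 for dark replicate 2 and -3.14 for dark replicate 3 over the repressed genes. Over the induced genes the same ratios were 1.62, 1.75 and 1.53. For the repressed genes the median log2 fold change was -3.18, and it was -2.85 once the 9 genes at or under 3 counts in every light library were set against that floor. The 53 genes with overlapping groups had a median of -3.74, larger in size than the -1.61 of the 31 without overlap. Without dark replicate 3, 22 of the 84 were called, of which 17 were among the 31 and 5 among the 53.

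**Figure D3:**
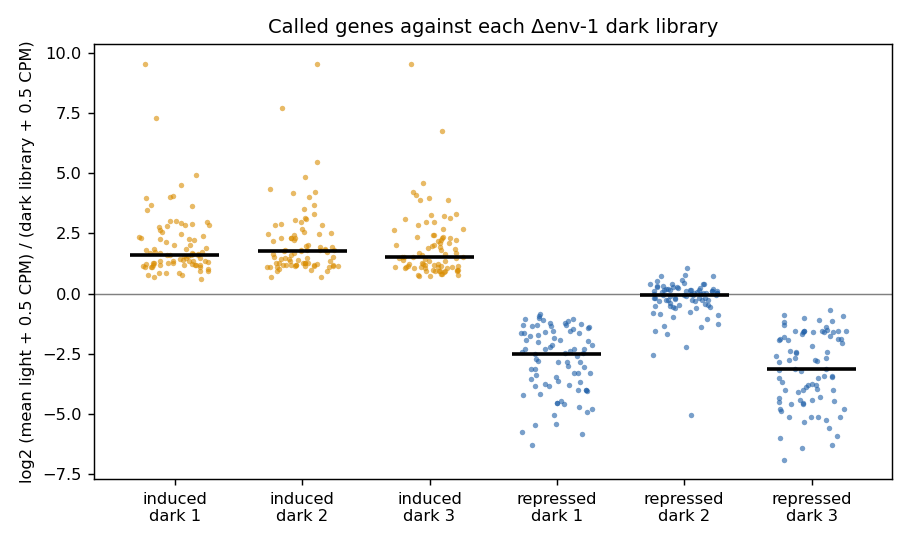
Log2 ratio of the mean Δenv-1 light level to the level in each Δenv-1 dark library (CPM + 0.5), for the 85 induced and the 84 repressed genes, with 1 point per gene and a bar at the median. The induced genes are at medians of 1.62, 1.75 and 1.53 against dark replicates 1, 2 and 3, and the repressed genes at -2.49, -0.056 and -3.14.

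The reporter bld-2 (Id. 301399), which encodes a short-chain dehydrogenase/reductase, had 1112, 1151 and 1097 CPM in light and 2734, 2805 and 2419.7 CPM in darkness (log2 fold change -1.24, standard error 0.16, edgeR adjusted p = 5.62e-05). It is 1 of the 31 repressed genes without overlap. The calpain family cysteine protease Id. 162247, picked after its values were seen, had 28.1, 23.5 and 23.3 CPM in light and 59.5, 60.0 and 71.4 CPM in darkness (log2 fold change -1.36, standard error 0.10, edgeR adjusted p = 7.86e-08). The alanine-glyoxylate aminotransferase Id. 223009 had 10.8, 9.34 and 11.5 CPM in light and 29.2, 34.6 and 31.9 CPM in darkness (log2 fold change -1.61, standard error 0.34, edgeR adjusted p = 0.00749). For these genes all dark libraries, dark replicate 2 included, were well above the light libraries. The FAD monooxygenase Id. 36860 and the lipase Id. 317495 were repressed with log2 fold changes of -1.09 and -1.01. By size, the rule for named genes gave Id. 293449, the neighbour of env-1 described above, then Id. 132655, Id. 272295, Id. 42133, Id. 258556, Id. 77440, Id. 290350, Id. 293585, Id. 247069 and Id. 179280.

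Several of these were low, with a narrow margin between the light libraries and dark replicate 2. The taurine dioxygenase Id. 132655, which frees sulfite from taurine, had 0.168, 0.418 and 0.588 CPM in light and 20.8, 0.765 and 30.5 CPM in darkness (log2 fold change -5.31, edgeR adjusted p = 0.00272). The GPI-anchored cell wall protein Id. 42133 had 0.505, 0.349 and 0.392 CPM in light and 14.3, 0.765 and 19 CPM in darkness (log2 fold change -4.78, edgeR adjusted p = 0.00256). The hypothetical protein Id. 272295 had at most 1 count in each light library, and 4.51, 0.191 and 4.92 CPM in darkness. For all 3 the gap between dark replicate 2 and the light libraries was under 1 CPM. Histidinol-phosphate aminotransferase (Id. 258556), an enzyme of histidine synthesis, had 1.68, 0 and 1.96 CPM in light and 9.81, 9.37 and 8.69 CPM in darkness, with dark libraries that stood together (log2 fold change -3.11, standard error 0.63, edgeR adjusted p = 0.00484). The hypothetical protein Id. 179280 had 3.87, 6.55 and 0.0979 CPM in light and 19.4, 18.4 and 15.9 CPM in darkness, likewise with close dark libraries (log2 fold change -2.28, edgeR adjusted p = 0.0198). The sulfatase Id. 77440, the ascorbate oxidase Id. 247069 and the hypothetical proteins Id. 290350 and Id. 293585 had log2 fold changes of -2.80, -2.44, -2.68 and -2.59, with dark replicate 2 the lowest dark library in each. Without dark replicate 3, Ids. 272295, 247069 and 293585 lost their call (edgeR adjusted p = 0.105, 0.179 and 0.179). Id. 77440 then had too few counts to be tested. The other repressed genes that the rule named kept their call.

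Of 9 genes of nitrogen and amino acid metabolism 6 were repressed and 1 was induced (median log2 fold change -3.11), but without dark replicate 3 only 2 were repressed and none induced. The 2 that remained were Id. 223009 and Id. 258556, and Id. 299535 then had too few counts to be tested. The high affinity nitrate transporter Id. 217165 had 0.337, 0.418 and 1.08 CPM in light and 10.5, 1.02 and 13.8 CPM in darkness (log2 fold change -3.71, standard error 0.92, edgeR adjusted p = 0.0212). Nitrate reductase (Id. 291159), which turns nitrate into nitrite, had 1.68, 0.558 and 1.37 CPM in light and 19.4, 0.319 and 27.1 CPM in darkness (log2 fold change -3.80, standard error 1.06, edgeR adjusted p = 0.0381). In both, dark replicate 2 was below the highest light library. Agmatine deiminase (Id. 299535) and argininosuccinate lyase (Id. 315217), enzymes of arginine-related pathways, showed the same order. Id. 299535 had 0.505, 0.139 and 0.392 CPM in light and 22.5, 0.191 and 28.9 CPM in darkness, and Id. 315217 had 1.85, 0.697 and 0.196 CPM and 13.4, 0.319 and 18.8 CPM. The induced gene was the proline racemase Id. 224180 (log2 fold change 1.53, edgeR adjusted p = 0.0299), which lost its call without dark replicate 2 as well.

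Cell wall and secreted proteins were induced in 4 of 13 cases and repressed in 7, or 4 and 2 without dark replicate 3, when Id. 77440 had too few counts to be tested (median log2 fold change -1.39). The induced ones were Id. 131177, the aspartic protease Id. 292296 (41.6, 39.4 and 36.1 CPM in light and 5.83, 6.7 and 5.71 CPM in darkness), the CFEM domain protein Id. 297699 and the glycine-rich cell wall protein Id. 94244 (log2 fold changes 1.74 and 1.11). Besides Ids. 42133, 77440 and 317495, the repressed ones were the cell wall glycoprotein Id. 158984, the aspartic proteinase Id. 228352, the extracellular lipase Id. 285336 and Id. 237745, all 4 with dark replicate 2 below the highest light library.

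Conidiation genes showed the same split among the dark libraries. All 6 markers of conidia and conidiophores, 3 hydrophobins, 2 conidial pigment polyketide synthases and a conidiospore surface protein, were repressed (median log2 fold change -4.54), and none had groups without overlap. The hydrophobin Id. 258295, one of the small proteins that make the spore surface water-repellent, had 6.4, 6.41 and 19.7 CPM in light and 375, 9.88 and 538 CPM in darkness (log2 fold change -4.80, standard error 1.14, edgeR adjusted p = 0.0161). The hydrophobin Id. 146062 had 0.842, 1.88 and 3.62 CPM in light and 110.4, 1.66 and 156 CPM in darkness (log2 fold change -5.30, standard error 1.21, edgeR adjusted p = 0.0122). The pigment polyketide synthase alb1 (Id. 217154) had 2.19, 1.81 and 3.13 CPM in light and 66.6, 2.3 and 115 CPM in darkness (log2 fold change -4.69, standard error 1.15, edgeR adjusted p = 0.0196). In each of these dark replicates 1 and 3 were high and dark replicate 2 was close to the light libraries. The surface protein Id. 323283 had 7.57, 5.65 and 11.5 CPM in light and 203, 7.52 and 301 CPM in darkness (log2 fold change -4.38, standard error 1.15, edgeR adjusted p = 0.0281). The third hydrophobin Id. 299543 and the other polyketide synthase Id. 154816 were repressed with log2 fold changes of -3.53 and -4.36. The multicopper oxidase Id. 217148, next to Id. 154816 in the P1 order and in 1 run with both polyketide synthases, was repressed as well (log2 fold change -4.37).

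Summed over the 6 genes, the level was 23.4, 18.8 and 45.4 CPM in Δenv-1 light and 845, 24.9 and 1246 CPM in Δenv-1 darkness, against 393, 39.6 and 547 CPM in WT light and 310.2, 69.1 and 586 CPM in WT darkness. Dark replicate 2 of the mutant thus lay within the range of its light libraries, and replicate 2 was also the lowest WT library in light and in darkness. No marker was at 0 in any of these 12 libraries. Without dark replicate 3 only Id. 146062 was called, and the median log2 fold change was -3.73. Without dark replicate 2 all 6 were called, at a median of -5.11. In the WT the median was 0.29 and none was called. Fewer conidiating cells in a library and less of these transcripts per cell cannot be told apart in RNA from whole mycelium. The part of spore formation on the plates in the levels of the other repressed genes was not tested.

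**Figure D4:**
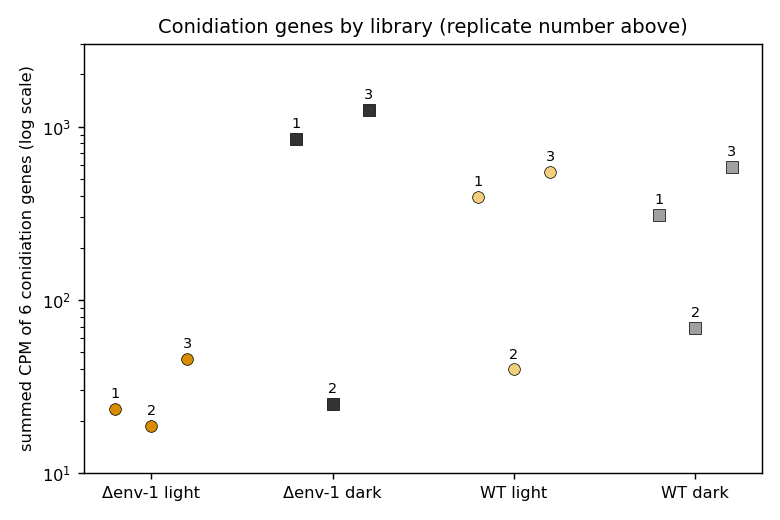
Summed level of the 6 conidiation genes per library, in CPM on a log axis, for Δenv-1 light, Δenv-1 darkness, WT light and WT darkness. The 3 Δenv-1 light libraries lie between 18.8 and 45.4 CPM together with Δenv-1 dark replicate 2 at 24.9 CPM, while the other Δenv-1 dark libraries are at 845 and 1246 CPM.

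Set beside the WT, more of the induced than of the repressed genes were called in both strains. In the WT, 85 genes were induced (0.904%) and 33 repressed (0.351%). The strains shared 68 induced genes, 80.0% of either list. They shared 8 repressed genes, 9.52% of the Δenv-1 list and 24.2% of the WT list. All 8 were among the 31 without overlapping groups, with log2 fold changes of -2.28 to -1.01. The 85 genes induced in Δenv-1 were all higher in light in the WT too, with a median log2 fold change of 1.61 in Δenv-1 and 1.52 in the WT. The 17 of them not called in the WT had medians of 1.22 in Δenv-1 and 0.73 in the WT. The difference between the strains was called for none of these 17 except Id. 245230. For the repressed genes the median was -3.18 in Δenv-1 and -0.037 in the WT, where 46 of 84 were lower in light. The 31 without overlap had medians of -1.61 in Δenv-1 and -0.68 in the WT, and the 53 with overlap had -3.74 and 0.06. None of the 84 repressed genes was called in the difference between the strains by edgeR, although 63 had an unadjusted p of at most 0.05, and 28 were called with the replicate block.

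**Figure D5:**
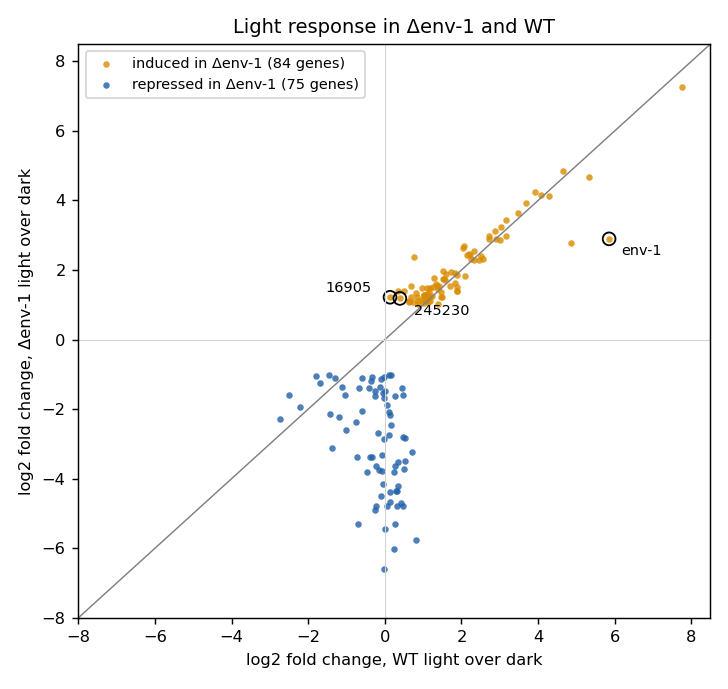
Log2 fold change of light against darkness in Δenv-1 and in the WT for 159 called genes, 84 induced and 75 repressed, with 1 point per gene; 10 genes without a usable fold change in 1 of the strains are not drawn. Most induced genes lie near the line of equal response, most repressed genes are near 0 in the WT, and env-1 and its neighbours Id. 16905 and Id. 245230 are circled.

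Levels in light were compared between the strains gene by gene. The genes had been called on these same Δenv-1 libraries. Their light levels are therefore biased upward for induced genes and downward for repressed genes, and their dark levels the other way. The shares over all genes tested do not correct for that, so the counts below are a description only. Of the 85 induced genes 40 had every Δenv-1 light library above every WT light library and 6 had every one below, against 15.7% and 15.0% of all genes tested. In darkness 22 were above and 13 below, against 11.7% and 12.2% of all genes. The sarcosine oxidase Id. 35737 was among the 40, with 358, 392 and 364 CPM in Δenv-1 light and 175, 172 and 178 CPM in WT light, as was blu-1 (Id. 300570), with 1028, 1197 and 1132 CPM and 541, 770.4 and 545 CPM. Of the repressed genes, 28 had light levels below and 5 above the WT light libraries, and 6 had dark levels above and 1 below the WT dark libraries. Across the repressed genes the median level was 3.77, 1.67 and 4.49 CPM in WT light and 4.16, 2.11 and 5.47 CPM in WT darkness, between the levels of Δenv-1 light and those of Δenv-1 dark replicates 1 and 3. Replicate 2 was the lowest WT library in light and in darkness in 48 of the 84 genes. The share of all genes tested with this order was not counted.

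For 6 of the repressed genes, chosen after their values were seen, no WT library came near the high dark libraries of the mutant: Ids. 132655, 53012, 300972, 299535, 271339 and 94151 had their highest WT library under 10% of the lower of Δenv-1 dark replicates 1 and 3. The hypothetical protein Id. 94151 had 0.505, 0.0697 and 0.196 CPM in Δenv-1 light and 59.1, 0.191 and 89.1 CPM in Δenv-1 darkness, against 1.21, 0.129 and 5.47 CPM in WT light and 1.73, 0.879 and 1.37 CPM in WT darkness. The hypothetical protein Id. 271339 had 0, 0 and 0.196 CPM in Δenv-1 light and 24.1, 0 and 35.7 CPM in Δenv-1 darkness, against 1.02, 0.257 and 1.3 CPM in WT light and 1.21, 0.176 and 0.684 CPM in WT darkness. With the replicate block Id. 300972 lost its call (edgeR adjusted p = 0.0705). It also lost its call without dark replicate 3, where Id. 299535 had too few counts to be tested. Ids. 132655, 53012, 271339 and 94151 kept their call without that library. Ids. 94151 and 271339 were each high in 2 libraries of the 12, both of them Δenv-1 dark libraries.

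Of the genes the study lists as light-responsive in the WT, a choice made on the same WT libraries, 96 of 97 induced and 37 of 38 repressed ones were tested in Δenv-1. Among the 96, 69 were induced and none repressed, 91 were higher in light, and the median log2 fold change was 1.49 in Δenv-1 and 1.69 in the WT. The 27 that were not called, of which 15 were called in the WT in the same fit, had medians of 0.57 in Δenv-1 and 1.45 in the WT. Among the 37, 9 were repressed, all 37 were lower in light, and the median was -0.85 in Δenv-1 and -1.35 in the WT. Of the 20 and 7 genes listed as induced and repressed by light in Δblr-1, the mutant without BLR-1, 4 were induced and 1 was repressed in Δenv-1. Without dark replicate 3 the WT lists gave 70 induced and 10 repressed genes and the Δblr-1 lists 3 and 1.

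Some called genes stood next to each other in the P1 order. How many adjacent pairs a set of genes of this size would hold regardless of the call was not determined. The counts therefore do not show whether called genes cluster. Of 79 induced genes with a position 20 formed 11 adjacent pairs, in 9 runs. Besides the run of Id. 16905, env-1 and Id. 245230 and the run of Ids. 155669, 160157 and 160158, these were Ids. 298329 and 305868, Ids. 147790 and 206334, Ids. 153516 and 218054, Ids. 302580 and 302581, Ids. 302686 and 302688, Ids. 138208 and 35737, and Ids. 139793 and 283564. Of 81 repressed genes with a position 9 formed 5 pairs, in runs that include the polyketide synthases Id. 217154 and Id. 154816 with the multicopper oxidase Id. 217148. Counts of neighbouring genes that overlap each other could not be separated by strand with this kit.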

How the data were processed

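Mycelium of T. atroviride WT and mutant strains was sequenced on an Illumina platform from unstranded TruSeq v2 libraries. The authors mapped the reads to the predicted transcripts of the v2 genome with Kallisto and deposited estimated counts, which are not normalized and of which 8.33% are not whole. The table has 36 columns, of which 24 could be matched to samples by name and 12 were not used. Estimated counts were rounded and fitted with edgeR 4.0.16 (R 4.3.3, limma 3.58.1, DESeq2 1.42.0) over the 18 WT, Δblr-1 and Δenv-1 libraries, with TMM scaling, a count minimum of 10 and the quasi-likelihood test. Genes were called where the p adjusted by Benjamini-Hochberg was 0.05 or less and the log2 fold change 1 or more in size, and the difference between strains at the adjusted p alone.

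Same-numbered libraries were related: deviations from the group means correlated across 9401 genes at 0.176, 0.122 and 0.121 for same-numbered Δenv-1 libraries, at 0.228, 0.544 and 0.377 in the WT and at 0.142, 0.234 and 0.126 in Δblr-1. In the WT, light replicate 3 with dark replicate 1 also reached 0.213, and light replicate 1 with dark replicate 3 reached 0.176. All other pairs of differing number were negative. All same-numbered pairs were over 0.1, the correlation set as the level above which equal numbers pair samples. The main fit nevertheless did not use the replicate number as a block. With that block 90 genes were induced, 121 repressed and 46 differed from the WT, against 85, 84 and 2 without it. No 2 Δenv-1 libraries of the same light condition agreed within sampling noise. Named genes are the members of 11 lists made by hand, the 10 induced and 10 repressed genes of largest size without overlapping groups, and those called in the difference between strains; others are said to be chosen after their values were seen or are neighbours and runs in the genome. Members and lists were chosen with earlier results of these data known, and 74 of the 106 list genes come from Δenv-1 tables that the study made from these libraries, so their counts are not independent evidence. Gene order came from RefSeq's annotation of strain P1, in which 10686 transcripts were found. Promoter sequences were not used here.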

Additional observations from a re-analysis of the deposited data

Results flagged for a closer look

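The light response differed between Δenv-1 and the WT for env-1 (Id. 150699), by -2.96 on the log2 scale, and for its neighbour Id. 245230, by 0.79, in the test of the difference itself. For Id. 245230 the light levels of Δenv-1 were above those of the WT while the dark levels overlapped, and for env-1 the levels of Δenv-1 were above those of the WT both in light and in darkness. The paper places mutant reads of env-1 in an untranslated region that the replacement left. Replacement of the gene by the marker and absence of the protein cannot be told apart for either.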

How the results depend on the processing

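The count of 85 induced genes was within 1.5 times of that value under all alternatives except the adjusted p alone (337) and a test against the minimum fold (glmTreat, 47). The count of 84 repressed genes was 23 to 177 with 1 Δenv-1 library left out, 41 with the Δenv-1 libraries alone, 327 by the adjusted p alone, 8 by glmTreat and 51 with the replicate block without dark replicate 3. The count of 2 genes that differed from the WT was 2 to 84 with 1 library left out, 15 by the likelihood ratio test, 12 by DESeq2, 46 with the replicate block and 5 with that block without dark replicate 3. The replicate block gave 90 induced and 121 repressed genes, both within 1.5 times. It moved further the count of 2 above, the repressed genes called in that difference (28 with it, none without) and, among the gene groups and study lists, the repressed polyketide and terpenoid enzymes (3 with it, none without), transcription regulators (2 with it, 1 without) and WT-induced genes (1 with it, none without). No other count of a gene group or study list moved by more than 1.5 times. With the 2 abundant transcripts left out before normalization, an alternative chosen after seeing the data, the counts were 85, 82 and 2. Of 1312 values of 88 named genes under the alternatives none reversed, 100 lost and 19 gained a call, and 51 of 77 called genes never lost theirs. The median of the hand-made lists moved by more than the replicate spread in 8 of 165 cases. With 3 libraries a group, and dark libraries that differ as described, the number of repressed genes is not well determined. The cause was not tested.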

Other observations

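A pair of transcripts, Id. 236632 and Id. 298021, neither of them described and both chosen after their values were seen, held 1.11, 3.79 and 0.335% of all counts in the Δenv-1 light libraries and 14.3, 0.653 and 30.8% in the Δenv-1 dark libraries. In the other 18 libraries they held 0.522 to 2.99%. The ratio between the levels of the 2 was 1.53 to 2.24 in every library. Their log2 fold changes in Δenv-1 were -3.54 (edgeR adjusted p = 0.0501) and -3.37 (edgeR adjusted p = 0.0745), so that neither was called. The same dark libraries, replicates 1 and 3, had the high summed levels of the conidiation genes, and the relation between them was not tested.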
